A study of Arvicanthis niloticus with 7 samples.

Results

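The cholesterol and HDL transport genes examined here are 9 genes that carry sterol into cells, through them and out of them, or that remodel HDL in plasma, namely *Scarb1*, *Lrp1*, *Npc1l1*, *Npc1*, *Npc2*, *Abca1*, *Lcat*, *Pltp* and *Lipc*. They were taken by gene symbol in the annotation of the array platform, which lists 9 probes for 7 of them, among 23141 probes for 16110 gene symbols. *Npc1* and *Lipc* have no probe under their symbol in that annotation and are named only. Of the 7 genes with a probe, 4 passed the filter on detection and were tested among 3734 genes, namely *Lrp1*, *Npc2*, *Lcat* and *Pltp*. *Npc1l1* was detected on 1 array, and *Scarb1* and *Abca1* on none of the 7.

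The liver is the organ through which the body both packages and disposes of cholesterol. Peripheral cells hand cholesterol to HDL through the ABCA1 transporter, LCAT esterifies it in the particle, phospholipid transfer protein and hepatic lipase reshape the particle, and the receptor SR-BI, encoded by *Scarb1*, takes the ester up into hepatocytes. Sterol that enters by endocytosis, for example of remnant particles bound to LRP1, leaves the lysosome through NPC2 and NPC1, and NPC1L1 takes free sterol up at the apical membrane, best known from the brush border of the small intestine and, in human, also from the bile canaliculus.

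Total RNA labelled as liver came from male Nile rats (NRs), African grass rats that become diabetic on carbohydrate-rich food. Feeding began at 3 weeks of age and lasted 4 weeks. The PFJ group (3 arrays) received a high-carbohydrate diet (70% of energy from carbohydrate, 10% from fat and 20% from protein) with palm fruit juice, a phenolic-rich liquor of oil palm milling, at 5.4 g of gallic acid equivalents per kg of diet, and the control group (4 arrays) received that diet without the juice. The arrays carry probes designed on mouse transcripts, so NR transcripts that differ from mouse at the probed stretch may be read weakly or missed. The RNA samples of highest integrity in each group had been chosen for the arrays, and the animal behind each array is not named, so that p-values measure only the spread between these samples.

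Signals are given as log2 values after background correction and quantile normalisation, and a probe counts as detected where its detection p, the rank of its signal among the negative controls of the array, was under 0.01. The lowest detected log2 value of an array was 6.22 to 6.52. Between 4689 and 5137 probes were detected per array, and the number of arrays limits the precision. As levels of different probes cannot be compared, each probe is set only against itself.

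The arrays labelled control replicates 3 and 4 stood apart from the other 5 arrays, with which they correlated across genes, which are not independent replicates, at r = 0.759 to 0.778, against 0.955 to 0.979 among the other 5. The summed normalised signal of 19 hepatocyte marker genes was 566717 to 588317 with PFJ, against 582423, 555739, 10108 and 15383 on the control arrays. That of 17 kidney tubule marker genes was 4030 to 4806 with PFJ, against 4369, 5338, 165493 and 165021 on the control arrays. Of these 17 genes, 8 were detected on both control replicates 3 and 4 and 2 on any of the other 5 arrays. *Umod*, the uromodulin gene of the thick ascending limb, and *Slc12a1*, a sodium-potassium-chloride cotransporter of the same segment, were detected on control replicates 3 and 4 alone. Probe 6040259 of *Slc12a1* and the probe for *Lrp2*, a further kidney tubule marker, were detected on no array. The mouse probe for *Alb*, the albumin gene, was detected on none of the 7 arrays, and that for *Ttr*, the transthyretin gene, on the 3 PFJ arrays alone. In bulk tissue, fewer cells of a type and less RNA per cell cannot be told apart. Each test of a member is also given without control replicates 3 and 4.

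Across the 7 arrays none of the 4 tested members passed an adjusted p under 0.05 from limma, and none passed an unadjusted p under 0.05, where 0% and 4.77% of the 3734 genes did. The unadjusted count was 81 genes higher and 97 lower with PFJ, and the split was 30 to 159 with arrays scaled to equal medians and 44 to 133 with the authors' normalised values. The member that separated the groups was *Npc1l1*, whose probe was brighter on each PFJ array than on each control array, but close to or under the detection limit throughout. *Lcat* and *Lrp1* had large positive fold changes on the 7 arrays that were near 0 without control replicates 3 and 4. *Npc2* alone of the tested members had a negative fold change on the 7 arrays.

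**Figure D1:**
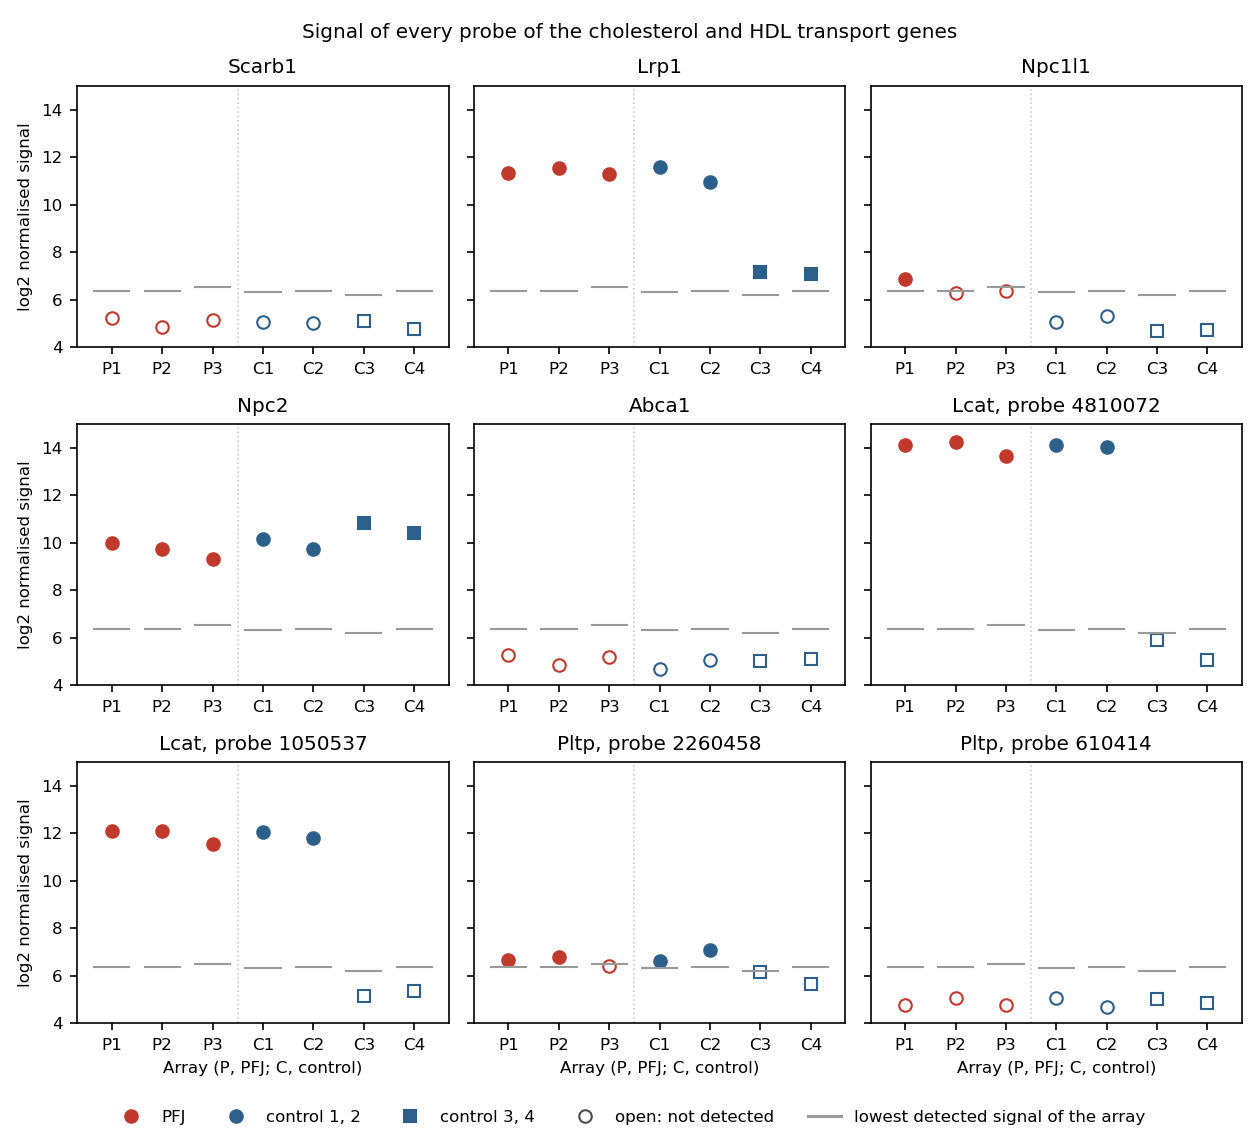
Log2 normalised signal (vertical axis) of each of the 9 probes on the 3 PFJ arrays (P1 to P3, red) and the 4 control arrays (C1 to C4, blue, with squares for replicates 3 and 4). Open symbols are signals that were not detected, and grey bars mark the lowest detected log2 value of each array, which lies between 6.22 and 6.52. Both *Lcat* probes and *Lrp1* are low on C3 and C4, *Npc2* is highest there, and *Npc1l1* lies higher on P1 to P3 than on any control array.

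*Scarb1* encodes SR-BI, the HDL receptor that takes cholesteryl ester into hepatocytes. Its probe had log2 values of 5.22, 4.85 and 5.13 on the PFJ arrays, against 5.05, 5.01, 5.09 and 4.76 on the control arrays. All 7 values were under the detection limit, with detection p-values of 0.173 to 0.556 with PFJ and 0.238 to 0.754 in controls, and the groups overlapped. The probe gives no fold change for this gene, and whether it reads the NR transcript was not tested.

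*Lrp1* encodes a large endocytic receptor that clears lipoprotein remnants and protease complexes. It was detected on all 7 arrays, with log2 values of 11.34, 11.53 and 11.28 on the PFJ arrays and 11.58, 10.96, 7.16 and 7.07 on control replicates 1 to 4. The PFJ values lay between those of control replicates 1 and 2, while replicates 3 and 4 stood far below. The signal before normalisation was 2666, 3177 and 2073 units with PFJ and 3266, 1950, 331 and 274 units in controls. The log2 fold change was 2.19 (standard error 1.21, 95% confidence interval -0.67 to 5.05, adjusted p = 0.561 from limma). Without control replicates 3 and 4 it was 0.11 (standard error 0.25, 95% confidence interval -0.49 to 0.71, adjusted p = 1.0 from limma). The summed signal of the hepatocyte markers was low on the same 2 arrays, and the part of hepatocyte content in the difference was not tested.

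*Npc1l1* encodes the sterol uptake transporter that the drug ezetimibe blocks. The probe read 6.89, 6.30 and 6.37 log2 units on PFJ replicates 1 to 3, against 5.05, 5.34, 4.71 and 4.75 on the control arrays. The groups did not overlap, the lowest PFJ array lying above the highest control array, as for 3.15% of the 16110 gene symbols when no filter on detection is set and for 3.45% of the tested genes. The signal before normalisation was 234, 202 and 199 units with PFJ and 143, 160, 135 and 124 units in controls. The detection p was 0.00125, 0.0113 and 0.0138 with PFJ, so that the first array passed the threshold and the others missed it narrowly, and 0.291, 0.117, 0.837 and 0.759 in controls. As the probe was detected on no control array, the fold has only a bound, which sets the mean of the PFJ arrays, including the 2 that missed the threshold, against the detection limit of the control arrays, and was at least 1.141-fold.

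With detection on 1 array *Npc1l1* was outside the filter and was not part of the test of the other members. A lower filter would admit it only through the PFJ array on which it was detected, so no fitted difference or p is given. In the authors' normalised values, which lie on a linear scale and fall under 0 at background, the probe had 96.6, 60.3 and 65.3 units with PFJ and 8.08, 21.4, -10.5 and -6.81 units in controls. With a floor of 10 on these values the ratio of the group means depended on where the floor was put. It was 5.76 with each array floored, and 4.71 against control replicates 1 and 2 alone. With the group means floored the ratio was 7.41, and 5.02 against control replicates 1 and 2 alone. The mean of all control arrays lay under the floor, so the 7.41 is set against the floor itself. *Npc1l1* was selected by the study on these arrays, so its direction is not independent evidence. Control replicates 1 and 2 as well as 3 and 4 lay under every PFJ value. Of 7 enterocyte marker genes with a probe, 0 were detected on any array, and their summed normalised signal was 233 to 272 with PFJ and 244 to 278 in controls. The part of such cells in the *Npc1l1* signal was not tested.

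*Npc2* encodes the soluble lysosomal protein that passes cholesterol to NPC1, the membrane protein through which it leaves the lysosome. It was detected on all 7 arrays, with log2 values of 9.99, 9.74 and 9.31 on the PFJ arrays and 10.14, 9.76, 10.84 and 10.39 on control replicates 1 to 4. PFJ replicate 3 was the lowest and control replicates 3 and 4 the highest, and the groups overlapped, since PFJ replicate 1 exceeded control replicate 2. The signal before normalisation was 1094, 984 and 605 units with PFJ and 1276, 905, 2414 and 1536 units in controls. The log2 fold change was -0.61 (standard error 0.31, 95% confidence interval -1.34 to 0.12, adjusted p = 0.561 from limma).

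Without control replicates 3 and 4 the log2 fold change of *Npc2* was -0.27 (standard error 0.27, 95% confidence interval -0.93 to 0.38, adjusted p = 1.0 from limma). It was -0.42 with control replicate 3 or PFJ replicate 3 left out. *Npc2* was also selected by the study on these arrays, so that its direction is not independent evidence. The summed signal of 12 macrophage marker genes was 1529 to 2042 with PFJ, against 2268, 1847, 784 and 1225 on control replicates 1 to 4, and was thus lowest on the pair of arrays where *Npc2* was highest. Of these 12 genes, 9 were detected on no array, and of the 3 tested, 2 lay below the other 5 arrays on that pair. The part of macrophages in the *Npc2* signal was not tested.

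*Abca1* encodes the transporter that loads cholesterol and phospholipid onto apolipoprotein A-I, the step that founds an HDL particle. The probe read 5.28, 4.84 and 5.18 log2 units on the PFJ arrays, against 4.70, 5.09, 5.02 and 5.10 on the control arrays. None was detected, with detection p-values of 0.143 to 0.566 with PFJ and 0.223 to 0.858 in controls, and the groups overlapped. Neither of the membrane proteins named here that exchange cholesterol directly with HDL or its apolipoproteins, SR-BI and ABCA1, was thus read above background.

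*Lcat* encodes lecithin-cholesterol acyltransferase, which hepatocytes secrete and which esterifies the cholesterol of HDL on the particle. The probe of its 2 that represented it in the test had log2 values of 14.12, 14.22 and 13.65 on the PFJ arrays and 14.12, 14.03, 5.90 and 5.08 on control replicates 1 to 4. The other probe had 12.09, 12.08 and 11.56 on the PFJ arrays and 12.05, 11.80, 5.15 and 5.38 on the control arrays. Both probes passed detection with PFJ and on control replicates 1 and 2 but not on control replicates 3 and 4, and on both PFJ replicate 3 was the lowest of the 5 arrays with a detected signal. The signal of the tested probe before normalisation was 18656, 21155 and 10514 units with PFJ, against 18638, 17584, 208 and 143 units on control replicates 1 to 4.

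The log2 fold change of *Lcat* was 4.22 (standard error 2.48, 95% confidence interval -1.64 to 10.08, adjusted p = 0.561 from limma). This sets the PFJ arrays against controls of which 2 of 4 were detected, and it was 3.32 (standard error 1.92) for the other probe when each probe was tested on its own. Without control replicates 3 and 4 it was -0.08 (standard error 0.24, 95% confidence interval -0.65 to 0.50, adjusted p = 1.0 from limma). Of 13 hepatocyte marker genes tested, 12 likewise lay below the other 5 arrays on control replicates 3 and 4. The part of hepatocyte content in the *Lcat* difference was not tested. Among the other 5 arrays *Lcat* lay within 0.57 log2 units.

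*Pltp* encodes phospholipid transfer protein, which moves phospholipid onto HDL and remodels its size. One of its 2 probes had log2 values of 6.66, 6.79 and 6.40 on the PFJ arrays and 6.63, 7.11, 6.17 and 5.65 on control replicates 1 to 4. Replicates 1 and 2 of each group passed detection, close to the detection limit, and the groups overlapped. The log2 fold change was 0.23 (standard error 0.36, 95% confidence interval -0.62 to 1.07, adjusted p = 0.769 from limma). Its direction depends on the arrays, being -0.02 without control replicate 4 and -0.25 without control replicates 3 and 4 (standard error 0.24, 95% confidence interval -0.83 to 0.33, adjusted p = 1.0 from limma). The second probe was detected on no array, at 4.79 to 5.08 with PFJ and 4.69 to 5.07 in controls, so the probes of this gene disagree on whether it is measured at all.

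**Figure D2:**
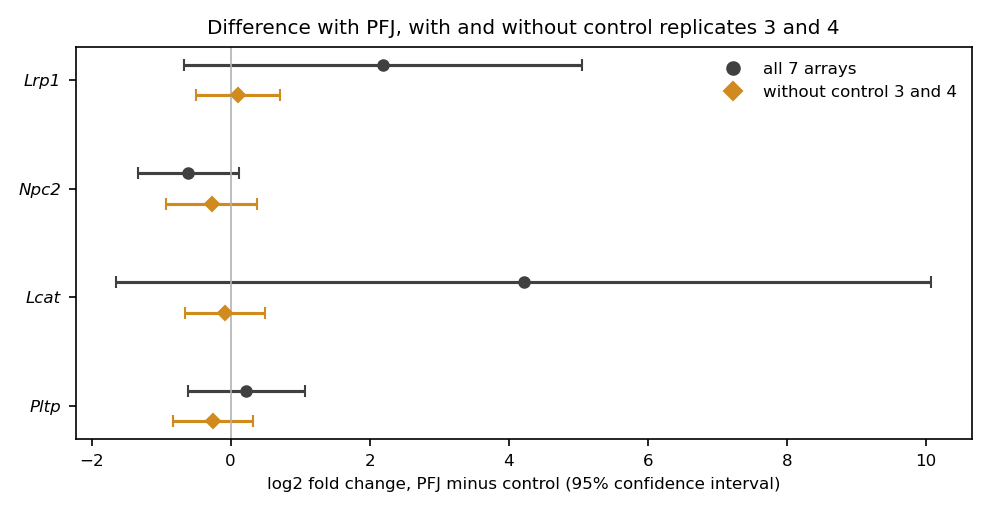
Log2 fold change, PFJ minus control (horizontal axis, with 95% confidence intervals), of the 4 tested members, for all 7 arrays (circles) and without control replicates 3 and 4 (diamonds). *Lcat* moves to -0.08 when the arrays are left out, where it was 4.22, and *Lrp1* to 0.11, where it was 2.19, and all 8 intervals include 0.

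On control replicates 3 and 4 each tested member lay outside the range of the other 5 arrays. *Lcat*, *Lrp1* and *Pltp* lay below it, as did 30.2% of the 3734 genes, and *Npc2* lay above it, as did 26.8%. The mean on these 2 arrays minus that on the other 5 was -4.22 for *Lrp1* and 0.83 for *Npc2*. *Lcat* and *Pltp* were detected on neither of these arrays, so that the difference has only a bound, being at least 213-fold lower there for *Lcat* and at least 1.34-fold lower for *Pltp*. Among those other 5 arrays the spread of the members was ordinary, at a range of 0.57 for *Lcat*, 0.62 for *Lrp1*, 0.71 for *Pltp* and 0.84 log2 units for *Npc2*, which are at the 36th to 63rd percentile of all tested genes. For none of these 4 genes did all PFJ arrays lie above or below all control arrays, as 3.45% and 3.62% of the tested genes did. At an unadjusted p under 0.05 without control replicates 3 and 4, none of the 4 was called, where 2.82% of the 3543 genes then tested were, and 0 genes were called at an adjusted p.

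The genes whose values, centred on their own mean over the 7 arrays, ran closest to each tested member were named by the root mean square difference in log2 units. For *Lcat* they were *Apoc4* (0.17) and *Apoa2* (0.32), both apolipoproteins of plasma lipoproteins, and *Tm4sf4* (0.35), a membrane protein. For *Lrp1* they were *Hc*, complement component C5 (0.18), *Ambp*, a plasma protein precursor that hepatocytes secrete (0.18), and *Bco2*, a carotenoid oxygenase (0.19). For *Npc2* they were *Abcb8*, a mitochondrial transporter (0.11), *Otub1*, a deubiquitinase (0.13), and *Scamp2*, a carrier protein of secretory membranes (0.15). For *Pltp* they were *Timm10b* (0.10), *Ube2f* (0.11) and *Tbcel* (0.11). All 7 arrays enter this measure, so the step between control replicates 3 and 4 and the other 5 carries most of it where that step is large, and for *Lcat* and *Pltp* it includes values under the detection limit.

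The members were set beside 89 other genes of cholesterol and lipoprotein metabolism in 6 lists, of which 69 had a probe and 26 were tested. Of these 26, 21 fold changes were positive and 5 negative, and their median was 1.04 log2 units, against 1953 positive, 1781 negative and a median of 0.03 over all tested genes. At an unadjusted p under 0.05, 3 were higher and 0 lower, where 81 were higher and 97 lower (4.77%) of the 3734 genes, and 0 passed an adjusted p. All 3 were apolipoproteins, and *Apoa1* and *Apoc1* among them had passed the filter through the PFJ arrays alone, so that this count is a description. On control replicates 3 and 4, 18 of the 26 lay below and 4 above the other 5 arrays, against 30.2% below and 26.8% above over all tested genes. Without these 2 arrays 16 were positive and 10 negative, with a median of 0.08, against -0.01 over all genes.

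Of 6 tested genes of cholesterol synthesis, 4 had a positive fold change and none passed. The extremes were *Insig2*, which retains the sterol sensor in the endoplasmic reticulum, at 1.15 (standard error 0.73), and *Nsdhl*, a late enzyme of the pathway, at -0.34 (standard error 0.19). Without control replicates 3 and 4 their log2 fold changes were -0.03 and -0.24. For *Nsdhl* the groups did not overlap, at 7.24, 7.58 and 7.51 with PFJ and 7.65, 7.71, 7.99 and 7.76 in controls. All PFJ arrays lay below all control arrays for 3.62% of the tested genes.

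Among lipoprotein receptors and their adaptors 2 of 16 listed genes were tested, and 9 of the 12 with a probe were detected on no array. For *Lrp5*, a co-receptor of Wnt signals related to LRP1, the log2 fold change was 1.03 (standard error 0.57), and 0.11 without control replicates 3 and 4. *Vldlr*, the receptor of very-low-density lipoproteins, had log2 values of 8.71, 8.28 and 9.64 on the PFJ arrays and 6.93, 7.49, 12.22 and 12.42 on control replicates 1 to 4. Its difference was -0.88 log2 units (standard error 1.51, adjusted p = 0.787 from limma).

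In the 3 remaining lists of cellular sterol handling and plasma enzymes no gene passed an unadjusted p under 0.05. The difference was 1.21 log2 units (standard error 0.60) for *Stard5*, a cytosolic sterol carrier, and -0.04 for *Lamp1*, a lysosomal membrane protein. Without control replicates 3 and 4 these were 0.25 and 0.16, and *Lamp1* also turned positive with the authors' normalised values. *Abcb4*, the phospholipid flippase of the bile canaliculus, had log2 values of 11.84, 11.79 and 11.66 with PFJ and 11.60, 11.64, 4.78 and 4.88 in controls. For this gene all PFJ arrays lay above all control arrays, as for 3.45% of the tested genes, though narrowly above control replicates 1 and 2. Its probe was not detected on control replicates 3 and 4, and the log2 fold change, 3.54 (standard error 1.96), was 0.14 without control replicates 3 and 4. The differences were 1.39 (standard error 0.69) for *Pon1*, the paraoxonase carried on HDL, and -0.84 (standard error 0.73) for *Lpl*, lipoprotein lipase, and were 0.42 and 0.11 without those arrays. *Pon1* was not detected on control replicates 3 and 4, nor *Lpl* on PFJ replicate 1.

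All 7 tested apolipoproteins of the list had a positive fold change, with a median of 2.94, or 2.59 with the 2 genes undetected in controls at their bound. This count is a description, since those 2 genes could pass the filter only by being high with PFJ. Of the 7, 5 lay below the other 5 arrays on control replicates 3 and 4. Without these 2 arrays 6 were positive and 1 negative, with a median of 0.41. *Apoa1* and *Apoc1*, the protein of the HDL scaffold and a small exchangeable apolipoprotein, shared the pattern of *Npc1l1*, in that each PFJ array lay above each control array and no control array was detected. All PFJ arrays lay above all control arrays for 3.45% of the tested genes. *Apoa1* had log2 values of 6.67, 7.73 and 9.20 with PFJ and 4.84, 4.90, 5.02 and 4.94 in controls, a fold of at least 2.90. *Apoc1* had 6.75, 7.25 and 8.58 with PFJ and 4.71, 4.92, 4.71 and 4.90 in controls, a fold of at least 2.29. No p is given for these 2 genes, as they passed the filter through the PFJ arrays alone. For *Apoc3*, an inhibitor of triglyceride clearance, the difference was 1.53 log2 units (standard error 0.64), and 0.57 without control replicates 3 and 4, where it was not detected. *Apoa2*, a further HDL protein, was like *Lcat* undetected on control replicates 3 and 4, and its difference of 4.42 log2 units (standard error 2.32) was 0.41 without control replicates 3 and 4. As the study had picked these 4 apolipoproteins from the arrays used here, their direction carries no independent weight.

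**Figure D3:**
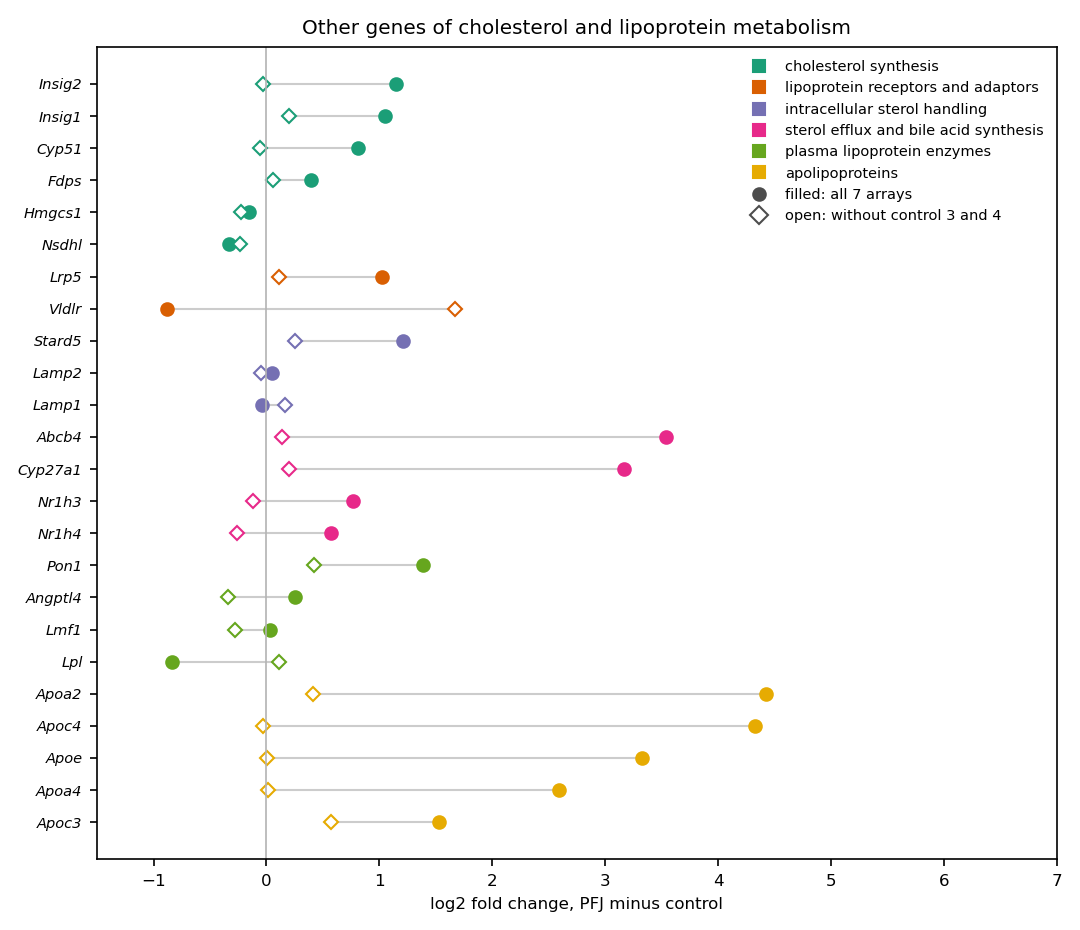
Log2 fold change, PFJ minus control (horizontal axis), of 24 tested genes of 6 lists of cholesterol and lipoprotein metabolism, for all 7 arrays (filled circles) and without control replicates 3 and 4 (open diamonds). *Apoa1* and *Apoc1*, which were detected on no control array, are not drawn. *Abcb4* moves to 0.14, where it was 3.54, *Apoa2* to 0.41, where it was 4.42, and *Vldlr* to 1.67, where it was -0.88.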

How the data were processed

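The Nile rat RNA was hybridised by the authors to Illumina MouseRef-8 BeadChips, and they then removed outlier samples by clustering of the array data. The deposited tables cover 7 arrays each. The first holds the authors' non-normalised signal intensity and a detection p-value per probe, summarised in GenomeStudio 2011.1 according to the submitters' processing notes. The second holds signal intensities the authors normalised by the rank invariant method, on a linear scale with values below 0, and served as an alternative. Both were read through the platform annotation (23141 of 25697 probes with 1 symbol, 2556 not listed).

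Signals were corrected and quantile normalised with neqc (offset 16, background inferred from the detection p-values) of limma 3.58.1 in R 4.3.3. A probe was kept when detected (p under 0.01) on at least 3 of the 7 arrays, and where a gene kept several probes, that of highest mean signal stood for it. PFJ and control were compared with lmFit and eBayes, two-sided, with Benjamini-Hochberg adjustment over 3734 genes, as the Illumina error model of the methods was not run here. The fit was tested on simulated data. These took their spread from the PFJ arrays alone and held no arrays set apart like control replicates 3 and 4. For a probe undetected in 1 group, a bound set the other group's mean log2 value against a floor, which on each undetected array was its lowest detected value or the probe's own, whichever was higher. Named are all members, pathway genes with an unadjusted p under 0.05, the largest positive and the largest negative fold change of each list, and the 3 genes closest to each tested member. The members and lists were chosen with earlier results of these data known, and fits without control replicates 3 and 4, and one with a detection threshold of 0.05, were added after the data were seen. Other alternatives changed the scaling, the background correction, the offset and the filter, left out 1 array in turn or added a replicate block. Sequences of the probes or proteins were not used here.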

Additional observations from a re-analysis of the deposited data

How the results depend on the processing

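Among the 4 tested members no alternative brought an adjusted p under 0.05 from limma, the lowest being 0.302. *Lcat* and *Pltp* were not tested when detection on all 7 arrays was asked. Of 79 values, 71 kept their direction. This count was partly fixed in advance, as a change of filter alone left the fold changes of these 4 members as they were. An unadjusted p under 0.05, which none had on the 7 arrays, was reached without control replicate 1 by *Lrp1* (2.99, unadjusted p = 0.0286, adjusted p = 0.302) and *Lcat* (5.66, unadjusted p = 0.0488, adjusted p = 0.302), and without control replicate 2 by *Npc2* (-0.78, unadjusted p = 0.0360, adjusted p = 0.330). The 8 that turned were *Pltp* at -0.0196 without control replicate 4 and with the replicate block, and *Pltp* at -0.253 and *Lcat* at -0.076 in each of 3 fits without control replicates 3 and 4, which differed in the filter (detection on 3 arrays, on 2, or none). With 1 array left out the log2 fold change was 2.65 to 5.66 for *Lcat* and 1.48 to 2.99 for *Lrp1*, lowest in both without control replicate 4 and highest without control replicate 1, -0.78 to -0.42 for *Npc2* and -0.0196 to 0.467 for *Pltp*. Over all genes, 28 to 306 were higher and 30 to 244 lower at an unadjusted p under 0.05 with 1 array left out, and 0 to 1 in each direction at an adjusted p. Higher and lower at the unadjusted threshold were 30 and 159 with equal medians (2 higher at an adjusted p; the median over all genes moved to -0.18 there, and was 0.03 in the main analysis), 44 and 133 with the authors' values, 52 and 60 with detection on all 7 arrays, 445 and 356 with no filter, and 136 and 130 with a detection threshold of 0.05. Without control replicates 3 and 4 they were 46 and 54, 60 and 71 with detection on 2 arrays (1 lower at an adjusted p), and 300 and 391 with no filter (1 lower at an adjusted p); the cause was not tested. The groups share replicate numbers, but same-numbered arrays deviated together at r = 0.089, 0.216 and 0.126 only. PFJ replicates 1 and 2 correlated best with the control of their own number, and PFJ replicate 3 with control replicate 4 (0.161). The numbers were not taken as pairs. The replicate block, in which control replicate 4 has no partner, gave 33 genes higher and 32 lower at the unadjusted threshold and 0 at an adjusted p. Signal over background limits *Scarb1*, *Abca1*, *Npc1l1* and *Pltp*, which lie at or near the detection limit.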

Other observations

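*Vldlr* was noticed after its values were seen. On all 7 arrays its log2 fold change was negative, whereas without control replicates 3 and 4 it was 1.67 (unadjusted p = 0.00737 and adjusted p = 1.0 from limma). Of the 3543 genes then tested, 2.82% had an unadjusted p under 0.05. Each of the 3 PFJ arrays lay above both remaining control arrays, and the share of all genes that did so was not counted. *Lpl*, whose product and the VLDL receptor act on the same triglyceride-rich particles, read 5.72, 7.35 and 7.73 log2 units with PFJ, the first not detected. On the control arrays it read 6.83, 6.82, 8.39 and 9.05. It was thus highest on control replicates 3 and 4 too but did not separate PFJ from control replicates 1 and 2.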
